A study of Arabidopsis thaliana with 44 samples.

Results

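ESM1 and 6 further genes of glucosinolate breakdown (ESP, TGG1, TGG2, NSP1, NSP2 and NSP5) were followed through 44 RNA sequencing libraries of Arabidopsis thaliana shoot apices. The 7 genes were taken by their identifiers (ESM1 AT3G14210, ESP AT1G54040, TGG1 AT5G26000, TGG2 AT5G25980, NSP1 AT3G16400, NSP2 AT2G33070 and NSP5 AT5G48180) out of 60887 features, 29696 of them genes, in a table of estimated counts. The set was chosen by the measured levels of ESM1, whose RNA differed between these mutants and wild type, so its levels in the mutants are given as a description without a test. The other 6 genes were added for their place in the pathway.

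The apices came from seedlings of ecotype Col-0 raised on soil under 16 h of light and 8 h of dark and were taken 7 days after germination. The groups were single mutants ago4, ago5 and ago9, the combinations ago4ago9, ago5ago9 and ago4ago5ago9, and ddm1, with 4 libraries each, and the wild types wt21 and wt col-0, with 8 libraries each. Total RNA, extracted with Trizol, was made into libraries by Smart-seq3, which copies whole transcripts into cDNA. The labels name no alleles, give nothing on what sets wt21 apart from wt col-0 and do not say whether replicates came from separate batches of plants, so p-values measure the spread between these libraries. AGO4 is an ARGONAUTE protein that guides DNA methylation with small RNAs, AGO9 and AGO5 are related ARGONAUTE proteins best known from reproductive tissue, and DDM1 is a chromatin remodeller needed for DNA methylation in heterochromatin.

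Glucosinolates are sulphur-containing defence compounds of the cabbage order that are stored apart from the enzymes that cleave them. When tissue is damaged, myrosinases such as TGG1 and TGG2, which are known from guard cells and phloem myrosin cells, remove the glucose, and the unstable product rearranges by default to an isothiocyanate. Specifier proteins divert that product: ESP (epithiospecifier protein) towards epithionitriles and nitriles, and the NSP proteins (nitrile specifier proteins) towards simple nitriles, whereas ESM1 (epithiospecifier modifier) is known to favour isothiocyanates over nitriles.

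ESM1 lies on chromosome 3 of the RefSeq assembly TAIR10.1 at 4729399 to 4731847 on the plus strand, and its annotated exons cover 1951 bases. The sequence that runs into its annotated start is shown because AGO4 and DDM1 act on DNA methylation and ESM1 is the gene whose level differed with their labels. It covers chr3:4729099-4729398 on the plus strand, 5′ to 3′, from RefSeq TAIR10.1, with each CG dinucleotide in capitals.

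ESM1 upstream window: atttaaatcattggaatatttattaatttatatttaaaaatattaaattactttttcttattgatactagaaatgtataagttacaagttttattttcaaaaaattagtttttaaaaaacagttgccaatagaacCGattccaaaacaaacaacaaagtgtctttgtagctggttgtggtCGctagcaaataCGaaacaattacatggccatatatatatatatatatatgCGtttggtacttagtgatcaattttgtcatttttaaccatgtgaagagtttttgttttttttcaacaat

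The 300 bases before ESM1 held 4 CG sites, and 73.7% of 27443 protein-coding genes had as many or more in a window of the same length (median 6). They held 5 CHG and 59 CHH cytosines over both strands, where H is any base but G, against medians of 10 and 70, and their GC content was 24.0% against a median of 31.3%. The G-box letters CACGTG, which read the same on both strands, were absent from this window and present in 7.09% of windows. No methylation was measured here, and these letters are given only to describe the site.

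The myrosinase genes TGG1 and TGG2 lie near each other on chromosome 5, TGG1 on the minus strand at 9079452 to 9082384 and TGG2 on the plus strand at 9072708 to 9075777. Their upstream windows are shown because the RNA levels of both varied together from library to library. They cover chr5:9082385-9082684 on the minus strand for TGG1 and chr5:9072408-9072707 on the plus strand for TGG2, with the longest run of letters that both windows hold in capitals.

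TGG1 upstream window: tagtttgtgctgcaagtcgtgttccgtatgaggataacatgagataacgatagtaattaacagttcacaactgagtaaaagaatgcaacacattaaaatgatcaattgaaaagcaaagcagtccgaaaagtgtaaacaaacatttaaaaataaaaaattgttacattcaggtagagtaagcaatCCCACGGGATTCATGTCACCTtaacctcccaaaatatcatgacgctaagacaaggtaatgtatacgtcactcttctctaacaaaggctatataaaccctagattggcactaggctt

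TGG2 upstream window: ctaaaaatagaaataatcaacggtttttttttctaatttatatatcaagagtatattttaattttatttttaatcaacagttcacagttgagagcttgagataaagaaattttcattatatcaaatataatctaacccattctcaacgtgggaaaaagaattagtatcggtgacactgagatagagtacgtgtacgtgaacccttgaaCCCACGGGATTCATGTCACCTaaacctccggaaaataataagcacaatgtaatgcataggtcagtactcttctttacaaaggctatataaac

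The shared run was 21 bases long and lay 116 to 96 bases before the start of TGG1 and 92 to 72 bases before that of TGG2. Read on the gene's own strand, it was found in 2 of the 27443 windows, 0.00729%, which are those of TGG1 and TGG2. The run was picked because these 2 windows hold it, so 2 is the lowest number this search could give. Whether the run has a part in the RNA levels was not tested. ESP lies on chromosome 1 at 20170715 to 20173949 on the minus strand. NSP1 lies on chromosome 3 at 5566083 to 5568545 on the plus strand, NSP2 on chromosome 2 at 14028282 to 14031164 on the minus strand, and NSP5 on chromosome 5 at 19540937 to 19542760 on the minus strand.

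The libraries held 4474807 to 10620084 counts each, with a median of 6644235, and the wild-type replicates 5 to 8 were deeper (7529636 to 10168438) than the wild-type replicates 1 to 4 (4985458 to 6577648). Levels below are CPM, counts rescaled to a fixed library size and counted over the 17557 features that passed a filter on low counts, with TMM factors for composition. Every mutant group carries the replicate numbers 1 to 4, so mutants were compared with wt col-0 replicates 1 to 4, and the 4 further replicates of each wild type were kept as groups of their own. Of the shoot meristem markers, STM, KNAT1 and CLV1 had counts in every library, whereas WUS, the marker of the organizing centre, had no count in 39 of 44 libraries and 4 of the 9 markers did not pass the filter. The 6 mesophyll markers together took 32138 to 109753 CPM, so the samples held a large amount of leaf RNA. In bulk tissue, fewer cells of a type and less RNA per cell cannot be told apart.

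The labels were checked with the targeted genes before the results were read. AGO4 RNA was at 0 to 1.21 CPM in ago4 and 0.142 to 0.952 CPM in ago4ago9, against 19.6 to 27.9 CPM in wt col-0. In the libraries labelled ago9 it was at 0.215 and 0 CPM in replicates 1 and 2 and at 20.8 and 23.1 CPM in replicates 3 and 4, although that label names no change of AGO4. In the libraries labelled ago4ago5ago9, which should lack AGO4, it was at 15.6 to 24.9 CPM. DDM1 RNA was at 0.147 to 0.540 CPM in ddm1 and 6.29 to 15.5 CPM in all other libraries. AGO5 did not exceed 1.27 CPM in any library, so its label could hardly be checked. AGO9 did not exceed 1.87 CPM, and its label could be checked only on sums of few counts. These were 2 in ago9, 0 in ago4ago9, 0 in ago5ago9 and 3 in ago4ago5ago9. In each other mutant group and wild-type replicate set they were 12 to 39. Single libraries overlapped, with 3 counts in ago4ago5ago9 replicate 4 and 1 in ago5 replicate 4. A mutant transcript can also persist, and the labels do not say where each mutation lies in its gene. The results below therefore speak of the libraries labelled ago9 and ago4ago5ago9.

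Of the 7 genes, 6 passed the filter. TGG1 was the most abundant per length in wt col-0 replicates 1 to 4, at a level of 181 ± 22.9 CPM per kilobase of annotated exon (SD, n = 4). ESM1 was at 24.0 ± 2.49 CPM per kilobase in the same libraries. In ago4 the level of ESM1 was 209 ± 15.6 CPM per kilobase beside 312 ± 63.4 CPM per kilobase of TGG1. NSP2 was the exception to the filter, with 13 counts in all, in 8 of the 44 libraries and at most 4 in a library. A count of 0 allowed a level of up to 0.282 to 0.670 CPM depending on the library, so NSP2, which is known mainly from seeds, was not detectable above that limit in 36 libraries and is not compared between groups.

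ESM1 RNA was more than 8 times as high in ago4 and ago4ago9 as in wt col-0, and close to the wt col-0 level in ago5ago9. In wt col-0 replicates 1 to 4 it was at 41.0, 50.2, 44.8 and 51.5 CPM. In ago4 it was at 376, 419, 390 and 444 CPM. In ago4ago9 it was at 381, 323, 478 and 478 CPM. Each ago4 and ago4ago9 library thus stood far above each wild-type library, while the ago4 and ago4ago9 ranges overlapped each other. The log2 fold change against wt col-0 was 3.12 ± 0.39 (SE) in ago4, an 8.69-fold level, and 3.15 ± 0.39 in ago4ago9, an 8.85-fold level. Mesophyll marker RNA, summed over 6 genes, was 90560 to 109753 CPM in ago4 and 81881 to 97451 CPM in ago4ago9 against 67528 to 78481 CPM in wt col-0 replicates 1 to 4, and its part in the ESM1 level was not tested.

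The libraries labelled ago9 fell apart into pairs with respect to ESM1. Replicates 1 and 2 were at 438 and 396 CPM, inside the ago4ago9 range, and these are the replicates without AGO4 RNA. Replicates 3 and 4 were at 49.3 and 47.7 CPM, inside the range of wt col-0 replicates 1 to 4. The mean of these 4 libraries (233 ± 213 CPM) therefore describes none of them, and the fitted log2 fold change of 2.31 ± 0.38 is given only for completeness.

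In the libraries labelled ago4ago5ago9 ESM1 was at 173, 156, 162 and 201 CPM, between the wild types and ago4 without overlap with either. The log2 fold change was 1.89 ± 0.38, a 3.70-fold level, in libraries that all held AGO4 RNA. In ago5 the values were 80.6, 47.0, 59.8 and 35.7 CPM, a spread that enclosed the whole range of wt col-0 replicates 1 to 4 (log2 fold change 0.25 ± 0.38). In ago5ago9 they were 43.0, 42.2, 36.9 and 37.1 CPM (-0.23 ± 0.38), and the upper pair lay inside the wt col-0 range.

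In ddm1 ESM1 was at 205, 120, 65.1 and 103 CPM, with AGO4 RNA at 23.2 to 25.4 CPM. All 4 values lay above wt col-0, but the lowest lay inside the range of wt21 replicates 1 to 4, and the group spanned a wider range relative to its level than any other mutant group apart from that labelled ago9. The log2 fold change against wt col-0 was 1.39 ± 0.37, a 2.63-fold level, and against wt21 replicates 1 to 4 it was 0.89.

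**Figure D1:**
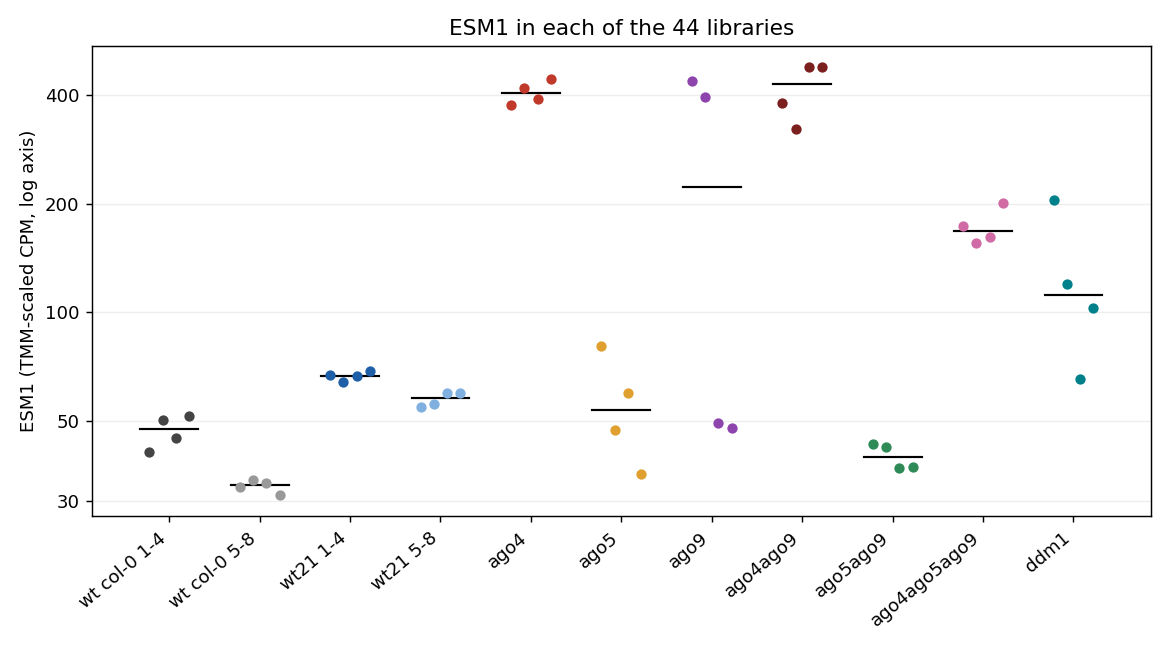
ESM1 level in TMM-scaled CPM (log axis) for each library, by group; a bar marks the group median, and the wild types are divided into replicates 1 to 4 and 5 to 8. The ago4 and ago4ago9 libraries sit between 323 and 478 CPM, and the libraries labelled ago9 split into 438 and 396 against 49.3 and 47.7 CPM.

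Ordered by median, the groups ran from ago4ago9 (430 CPM) through ago4 (405), the libraries labelled ago9 (223) and ago4ago5ago9 (168), ddm1 (112), wt21 replicates 1 to 4 (66.8) and 5 to 8 (57.7), ago5 (53.4), wt col-0 replicates 1 to 4 (47.5) and ago5ago9 (39.7) to wt col-0 replicates 5 to 8 (33.2). Of the neighbours in this order, the ranges of wt21 replicates 1 to 4 and 5 to 8 did not overlap, nor did those of ago5ago9 and wt col-0 replicates 5 to 8. All other neighbouring ranges overlapped. For the libraries labelled ago9 the range and median span the gap between their pairs. None of these libraries lay inside the ago4ago5ago9 range of 156 to 201 CPM.

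**Figure D2:**
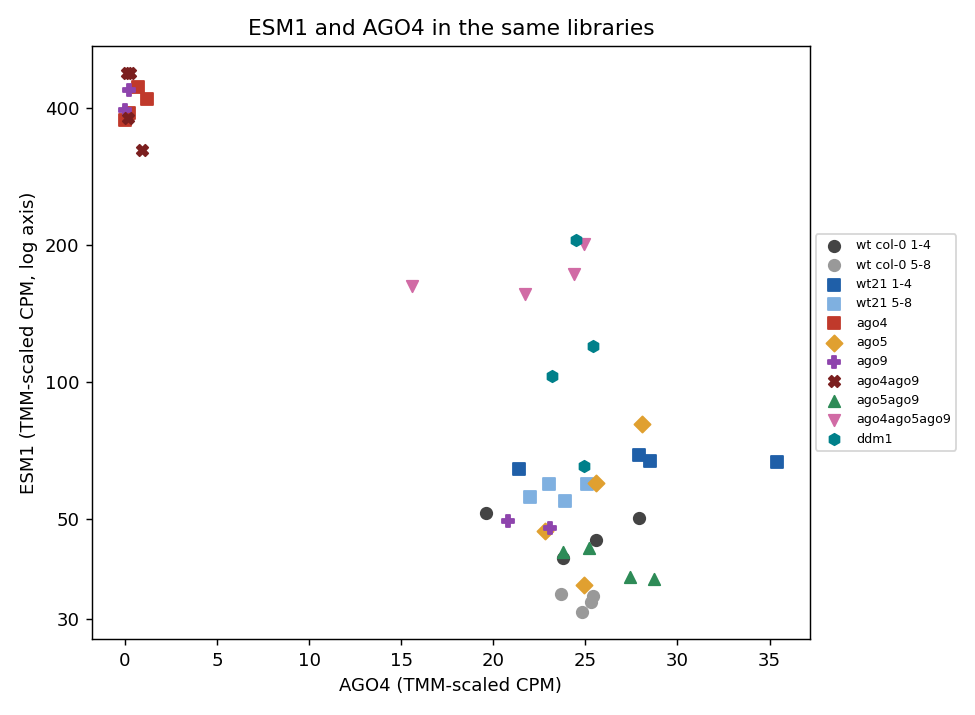
ESM1 level (vertical, log axis) against AGO4 level (horizontal), both in TMM-scaled CPM, with 1 point per library. The ago4 and ago4ago9 libraries and replicates 1 and 2 of those labelled ago9 lie at 0 to 1.21 CPM of AGO4, and the libraries labelled ago4ago5ago9 and ddm1 have 15.6 to 25.4 CPM of AGO4 with ESM1 at 65.1 to 205 CPM.

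ESM1 also separated the wild types. In replicates 1 to 4, wt21 was at 66.8, 64.2, 66.7 and 68.9 CPM, above the wt col-0 values of 41.0 to 51.5 CPM. In replicates 5 to 8, wt21 was at 54.7, 55.8, 59.7 and 59.7 CPM and wt col-0 at 32.8, 34.2, 33.7 and 31.1 CPM. The ranges did not overlap in either set, which held in the same direction for 31 of 17557 features (0.177%), and for 3.17% in replicates 1 to 4 alone. The log2 difference was 0.51 (1.43-fold) in the first set and 0.80 (1.75-fold) in the second. The fit across all features did not call it: the log2 fold change in replicates 1 to 4 was 0.51 ± 0.38 with an edgeR adjusted p of 1, where 0 features (0% of those tested) were called. At an unadjusted p under 0.05 edgeR gave 0 of the 6 genes and 789 features (4.49%), and over all features limma voom called 0 and DESeq2 called 4, none of the 6 genes among them. The standard error was 0.20 without the libraries labelled ago9 and 0.10 in a fit of the wild types alone (edgeR adjusted p of 1 and 0.358).

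The annotated neighbours of ESM1 did not share its pattern. AT3G14220, 980 bases downstream, was at 11.9 to 19.4 CPM in wt col-0 replicates 1 to 4, 11.2 to 19.8 CPM in ago4 and 15.3 to 22.5 CPM in ago4ago9, and was called in none of the 9 comparisons, with log2 fold changes of -0.01 to 0.48. AT3G14205 (SAC2, annotated as suppressor of actin 2), 8395 bases upstream, was at 21.7 to 28.6 CPM in wt col-0 and 13.5 to 20.6 CPM in ago4 (-0.53, edgeR adjusted p of 0.101). It was lower in ddm1, at 12.5 to 15.5 CPM (-0.81, edgeR adjusted p of 4.88e-05), where 7.80% of features were called lower. GLIP4, a gene of the GDSL lipase family to which ESM1 also belongs, had 1 count in all libraries together, and the long non-coding RNA AT3G02895 was not analysed here.

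The 5 features whose profiles lay closest to that of ESM1 were 3 transposable elements, AT1G67865 and MT3. Closeness was the root mean square difference of centred log2 CPM over all 44 libraries, and it was 0.80 for the element AT2TE82000, 1.03 for AT1TE14315 and for AT4TE44990, and 1.08 for AT1G67865 and for MT3, a metallothionein gene, where a flat profile would score 1.33. AT2TE82000 was at 1.52 to 2.12 CPM in ago4, 3.54 to 5.97 CPM in ago4ago9 and 2.37 and 2.72 CPM in replicates 1 and 2 labelled ago9, against at most 0.494 CPM in wild-type replicates 1 to 4. AT1TE14315 and AT4TE44990 did not exceed 0.454 CPM outside ago4 and ago4ago9. They had 112 and 150 counts in ago4ago9, 10 and 21 in ago4 and 0 in the libraries labelled ago4ago5ago9. Features this low pass the filter only through groups where they are high, so part of their likeness to ESM1 was built in. Unlike ESM1, they were not high in replicates 1 and 2 labelled ago9 or in the libraries labelled ago4ago5ago9. With replicates 1 to 4 alone, 1 of these 5 features was again among the closest 5, and with a prior count of 0.5 in place of 2 it was 2, so the list describes these settings and little else.

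For the myrosinase genes TGG1 and TGG2 the fold changes were above 0 in all 6 ago groups and below 0 in ddm1, but the fit called 1 of these differences, TGG1 in ago4ago9. All share the control wt col-0 replicates 1 to 4, and wild-type wt21 also lay above it, uncalled. The log2 fold changes were 0.26 ± 0.20 (TGG1) and 0.32 ± 0.21 (TGG2) in wt21, against 0.24 ± 0.20 and 0.17 ± 0.21 in ago5ago9. Over the alternatives those of ago5ago9 went down to -0.03 and -0.15. In wt col-0 replicates 1 to 4, TGG1 was at 342, 312, 404 and 312 CPM. In ago4ago9 it was at 463, 660, 745 and 690 CPM, without overlap. The log2 fold change was 0.90 ± 0.20, a 1.87-fold level (edgeR adjusted p of 0.0298), in a comparison in which 0.211% of features were called and 0.182% were called higher. TGG1 was the only call among the 5 genes tested there (TGG1, TGG2, ESP, NSP1 and NSP5). TGG2 was at 168, 240, 249 and 215 CPM (0.53 ± 0.21, edgeR adjusted p of 0.402), so the ranges of 2 of the 5 genes did not overlap, as did not those of 4.44% of all features. The call was lost against wt21 replicates 1 to 4 (0.64, edgeR adjusted p of 0.334) and on leaving out ago4ago9 replicate 2, 3 or 4 or wt col-0 replicate 1, 2 or 4, with edgeR adjusted p of 0.0708 to 0.132.

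In ago4 TGG1 was at 662, 473, 720 and 504 CPM, again without overlap with wt col-0 replicates 1 to 4, and TGG2 was at 264, 197, 288 and 217 CPM against 163, 135, 167 and 140 CPM. The log2 fold changes were 0.78 ± 0.20 for TGG1 and 0.68 ± 0.21 for TGG2, with edgeR adjusted p of 0.0636 and 0.130, so edgeR called 0 of the 5 genes, where 0.319% of all features were called. These 2 genes had an unadjusted p under 0.05, as did 13.5% of all features. Of the 5 genes limma voom called 0 and DESeq2 called 2. Over all 17557 features limma voom called 56 and DESeq2 called 1.24%. Ranges did not overlap for 2 of the 5 genes, and for 8.03% of all features in that comparison. Both genes were called with all 8 wt col-0 libraries as control (edgeR adjusted p of 0.000387 and 0.00258), a control that mixes the replicate sets and under which 7.18% of all features were called. Against wt21 replicates 1 to 4 neither was called, at 0.52 for TGG1 and 0.36 for TGG2 (edgeR adjusted p of 0.508 and 0.632). Under that control 0.125% of all features were called. The ago4 libraries also held more mesophyll marker RNA, at a summed 90560 to 109753 CPM against 67528 to 78481 CPM in wt col-0 replicates 1 to 4, although none of the 6 markers was called, and the sum of the stomatal lineage markers was 66.0 to 74.4 CPM against 60.7 to 67.5 CPM. The part of these tissues in the myrosinase levels was not tested.

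In ago5 TGG1 was at 428, 615, 440 and 488 CPM and TGG2 at 173, 248, 192 and 199 CPM. Neither range overlapped that of wt col-0 replicates 1 to 4, in a comparison in which 3.87% of ranges did not, but the log2 fold changes of 0.53 ± 0.20 and 0.43 ± 0.21 had edgeR adjusted p of 0.641 and 0.670. In the libraries labelled ago9 TGG1 was at 608, 583, 544 and 369 CPM (0.62 ± 0.20, edgeR adjusted p of 0.265). TGG1 and TGG2 (236, 232, 207 and 144 CPM) were both higher in replicates 1 and 2 than in replicates 3 and 4, as ESM1 was, but replicate 3 lay nearer to replicate 2 than to replicate 4. The ranges of TGG1 in ago5ago9 (294 to 511 CPM) and in the libraries labelled ago4ago5ago9 (293 to 561 CPM) enclosed that of wt col-0. The share of features called was 0.0171% in ago5, 0.0114% in each of the comparisons labelled ago9 and ago4ago5ago9, and 0.131% in ago5ago9, and edgeR called 0 of the 5 genes in each. At an unadjusted p under 0.05 it gave 2 genes in ago5 and ago9 (TGG1 and TGG2), 1 in ago5ago9 (NSP1) and 2 in ago4ago5ago9 (TGG2 and NSP1), where the shares over all features were 7.32% in ago5, 11.0% in ago9, 11.3% in ago5ago9 and 10.8% in ago4ago5ago9. By limma voom 0 were called in these 4 comparisons, and by DESeq2 1 in ago9 and 1 in ago5ago9, where DESeq2 called 0.336% and 0.587% of all features. Of 17557 features limma voom called 3 in ago5, 1 in ago9, 9 in ago5ago9 and 11 in ago4ago5ago9. DESeq2 called 4 features in ago5 and 28 in ago4ago5ago9.

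In ddm1 TGG1 was at 272, 319, 162 and 278 CPM and TGG2 at 141, 164, 57.5 and 118 CPM. Replicate 3 was the lowest for both genes, and 1 value of TGG1 (319 CPM) lay inside the wt col-0 range. The log2 fold changes were -0.41 ± 0.20 and -0.33 ± 0.21 (edgeR adjusted p of 0.159 and 0.296), and edgeR called 0 of the 5 genes where 19.0% of all features were called. TGG1 alone had an unadjusted p under 0.05, as did 30.4% of all features. Of the 5 genes limma voom and DESeq2 called 0, where limma voom called 3444 and DESeq2 2890 of 17557 features. Against wt21 replicates 1 to 4 both were called lower, TGG1 by -0.67 and TGG2 by -0.65 (edgeR adjusted p of 0.0136 and 0.0213), where 18.9% of all features were called. All 6 mesophyll markers and 2 of the 8 tested stomatal lineage markers (EPF1 and KAT1) fell in ddm1, and the summed stomatal lineage level was 34.2 to 61.8 CPM against 60.7 to 67.5 CPM in wt col-0. SPCH, which starts the stomatal lineage, was at 4.40 to 11.9 CPM with a median of 7.35 CPM, against 3.83 to 6.70 CPM with a median of 5.12 CPM, and was not called. Of the 5 shoot meristem markers tested 0 were called, with a median log2 fold change of 0.55. Whether the myrosinase levels followed the tissues that express them was not tested.

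**Figure D3:**
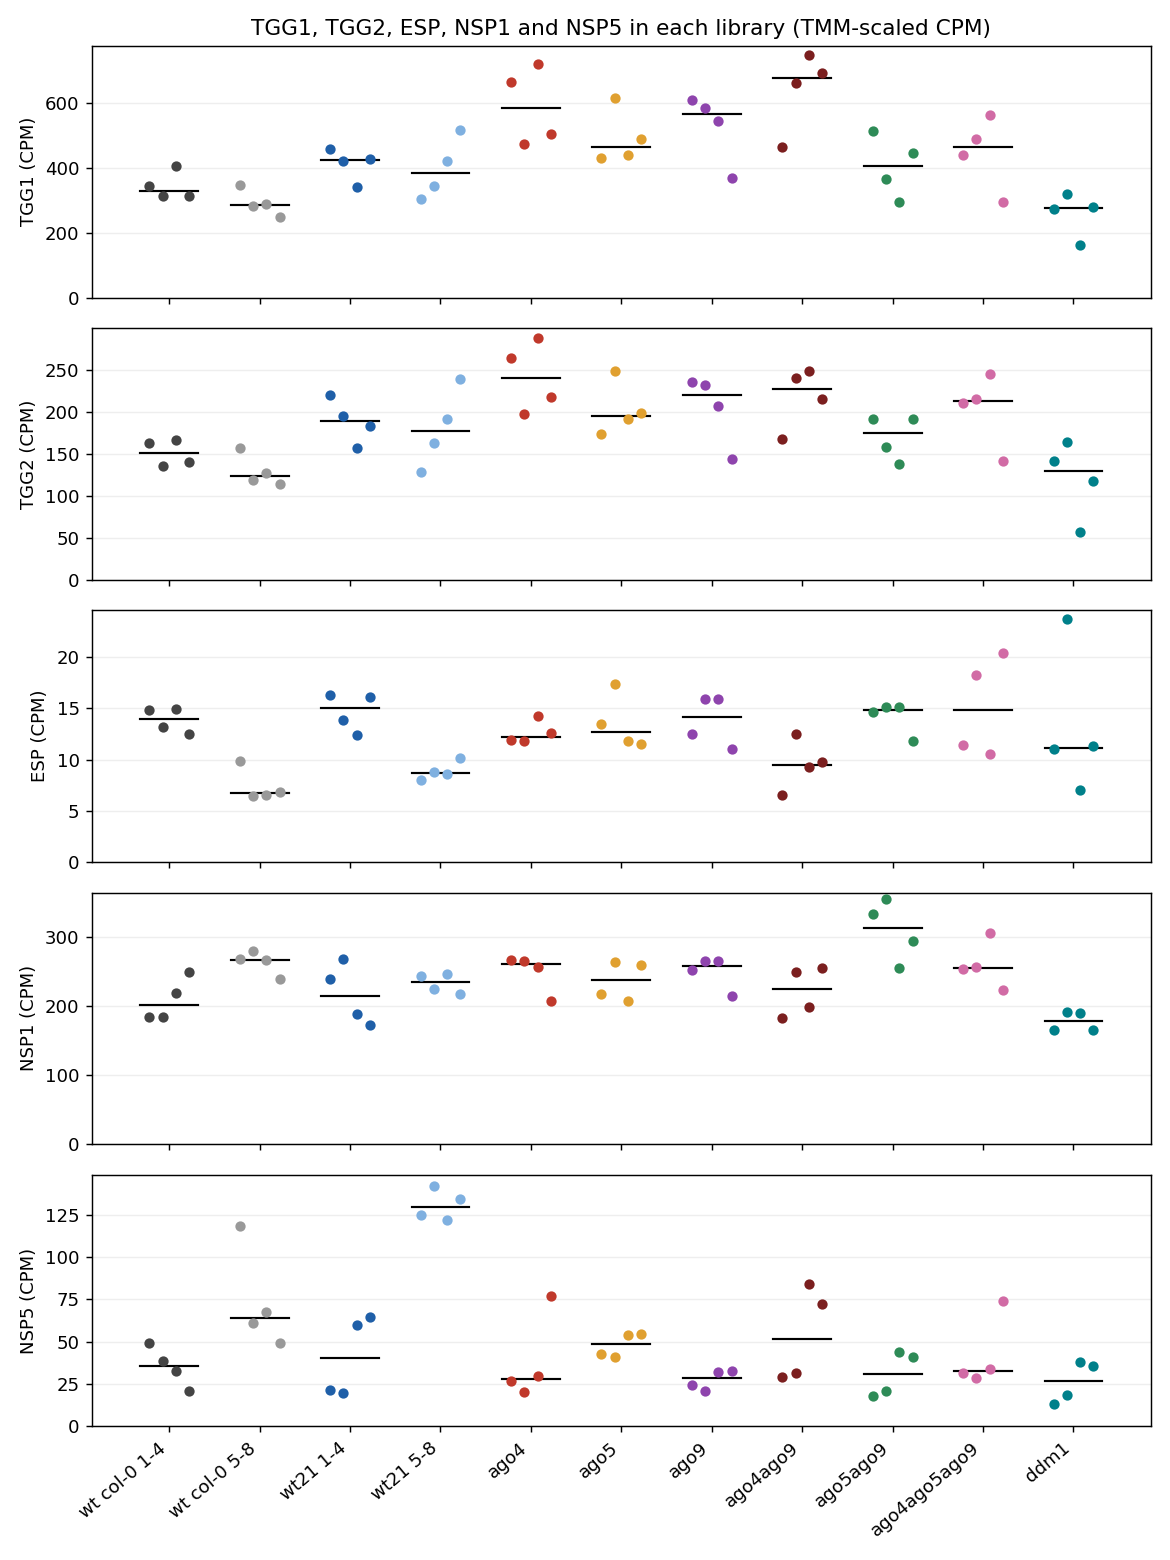
Levels of TGG1, TGG2, ESP, NSP1 and NSP5 in TMM-scaled CPM (linear axes from 0) for each library, by group; a bar marks the group median. TGG1 is highest in ago4ago9 and ago4, at 463 to 745 CPM in these 8 libraries, ESP is lower and NSP5 higher in wild-type replicates 5 to 8 than in 1 to 4, and NSP1 reaches 355 CPM in ago5ago9.

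The ratio of TGG1 to TGG2 counts varied less than either gene. Its median was 2.27 in wt col-0 replicates 1 to 4, 2.24 in replicates 5 to 8, and 2.16 and 2.18 in the same sets of wt21, and it did not exceed 2.41 in any wild-type library. In ago4ago9 it was 2.74 to 3.21, above every wild-type library. In the libraries labelled ago9 it was 2.52 to 2.62, also above every wild-type library, and in ddm1 1.92 to 2.82. It was 2.32 to 2.51 in ago4 and about as high in ago5, at 2.29 to 2.48. In ago5ago9 it was 2.14 to 2.67, and in the libraries labelled ago4ago5ago9 2.08 to 2.29. The ratio was examined after the levels had been seen and was not tested.

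**Figure D4:**
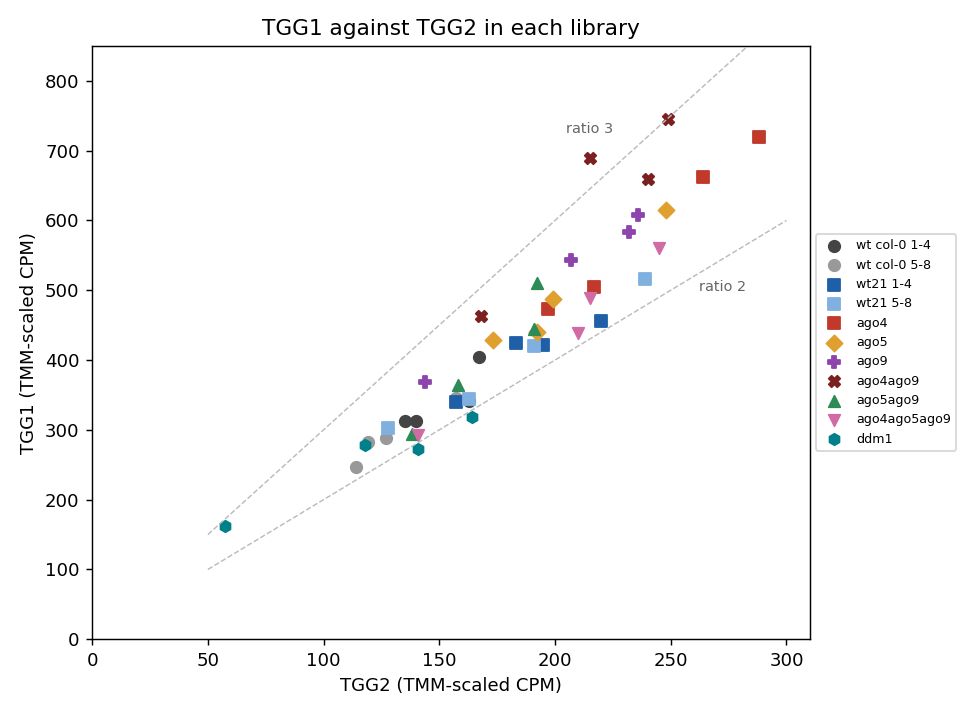
TGG1 level against TGG2 level in TMM-scaled CPM, with 1 point per library and broken lines at ratios of 2 and 3. The ago4ago9 libraries have count ratios of 2.74 to 3.21, and ddm1 replicate 3, with a ratio of 2.82, lies lowest on both axes, at 162 and 57.5 CPM.

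The specifier gene ESP had low levels and no called change in any mutant. In wt col-0 replicates 1 to 4 it was at 14.8, 13.2, 14.9 and 12.5 CPM. The lowest mutant group was ago4ago9, at 6.51, 12.5, 9.26 and 9.75 CPM, where only the highest value met the range of wt col-0 replicates 1 to 4 (log2 fold change -0.53 ± 0.24, edgeR adjusted p of 0.490). Its mean of 9.51 CPM lay above those of wild-type replicates 5 to 8, at 7.43 CPM in wt col-0 and 8.93 CPM in wt21. In ago4, where ESM1 was at an 8.69-fold level, ESP was at 11.9, 11.8, 14.3 and 12.6 CPM and the 95% interval of its log2 fold change ran from -0.58 to 0.33. In ddm1 it was at 11.0, 23.7, 7.07 and 11.3 CPM, and all 4 values lay outside the wt col-0 range, 3 below it and 1 above.

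NSP1 was the most abundant of the specifier genes. It was at 184, 184, 219 and 249 CPM in wt col-0 replicates 1 to 4 and at 333, 355, 255 and 294 CPM in ago5ago9, its highest group, without overlap. The ago5ago9 range did overlap those of wt21 replicates 1 to 4 (173 to 269 CPM) and wt col-0 replicates 5 to 8 (239 to 280 CPM). It did not overlap that of wt21 replicates 5 to 8 (217 to 246 CPM). The log2 fold change of 0.57 ± 0.13, a 1.48-fold level, had an edgeR adjusted p of 0.0631, and over the alternatives that value ran from 0.0115 to 0.274. The ranges of 5.47% of all features did not overlap in that comparison. NSP1 counts were not whole numbers in any of the 44 libraries, whereas those of the other 6 genes were, so part of its reads was divided with other features and its level is uncertain. Its neighbours in the genome include the related genes NSP3 and NSP4.

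NSP5 varied widely within groups. In wt21 replicates 1 to 4 it was at 21.6, 19.5, 59.6 and 64.8 CPM, and in ago4 at 26.7, 20.3, 29.5 and 77.1 CPM. The log2 fold changes against wt col-0 ran from -0.42 ± 0.40 in ddm1 to 0.62 ± 0.39 in ago4ago9, and the edgeR adjusted p-values of the 7 mutants were 0.521 or higher. With that standard error, changes of this size could not be called.

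The wild-type replicates 5 to 8 differed from replicates 1 to 4 in ESP and NSP5. ESP was at 9.85, 6.47, 6.59 and 6.82 CPM in wt col-0 and 8.05, 8.83, 8.63 and 10.2 CPM in wt21 replicates 5 to 8. All of these lay below the 12.4 to 16.3 CPM of the 8 libraries numbered 1 to 4, a separation that 3.77% of all features showed. ESP fell by 0.81 ± 0.16 on the log2 scale, to 0.572 of its level (edgeR adjusted p of 0.000388). NSP5 was at 118, 61.0, 67.4 and 49.2 CPM in wt col-0 and 125, 142, 122 and 134 CPM in wt21 replicates 5 to 8, against 19.5 to 64.8 CPM in replicates 1 to 4, so the ranges met. NSP5 rose by 1.37 ± 0.28 on the log2 scale, a 2.58-fold level (edgeR adjusted p of 0.000359).

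The calls of ESP and NSP5 made 2 of 6 genes tested in that comparison, in which 18.6% of all features were called. ESM1 (-0.36 ± 0.26), TGG1 (-0.14 ± 0.14), TGG2 (-0.15 ± 0.15) and NSP1 (0.22 ± 0.09) were not called. In a fit of the wild types alone ESM1 was called lower in replicates 5 to 8 (-0.37 ± 0.07, edgeR adjusted p of 0.000225), and without the libraries labelled ago9 its edgeR adjusted p was 0.0631. NSP1 was called without wt21 replicate 2 (0.28, edgeR adjusted p of 0.0385). Within wt21 alone ESP was not called (-0.72, edgeR adjusted p of 0.0639), and within wt col-0 alone NSP5 was not (1.06, edgeR adjusted p of 0.0744). The difference between the wild types in this change was itself tested as an interaction, and it was not called for any of the 6 genes (edgeR adjusted p of 1 for each). That test called 6 of 17557 features in all, so it cannot show that both wild types changed alike. For NSP5 the log2 difference, wt21 minus wt col-0, was 0.61 ± 0.55. Of the mesophyll markers, 4 of 6 fell in replicates 5 to 8, with sums of 40299 to 69503 CPM against 67528 to 92085 CPM, and the libraries were deeper. The part of tissue or depth in the ESP and NSP5 difference was not tested.

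**Figure D5:**
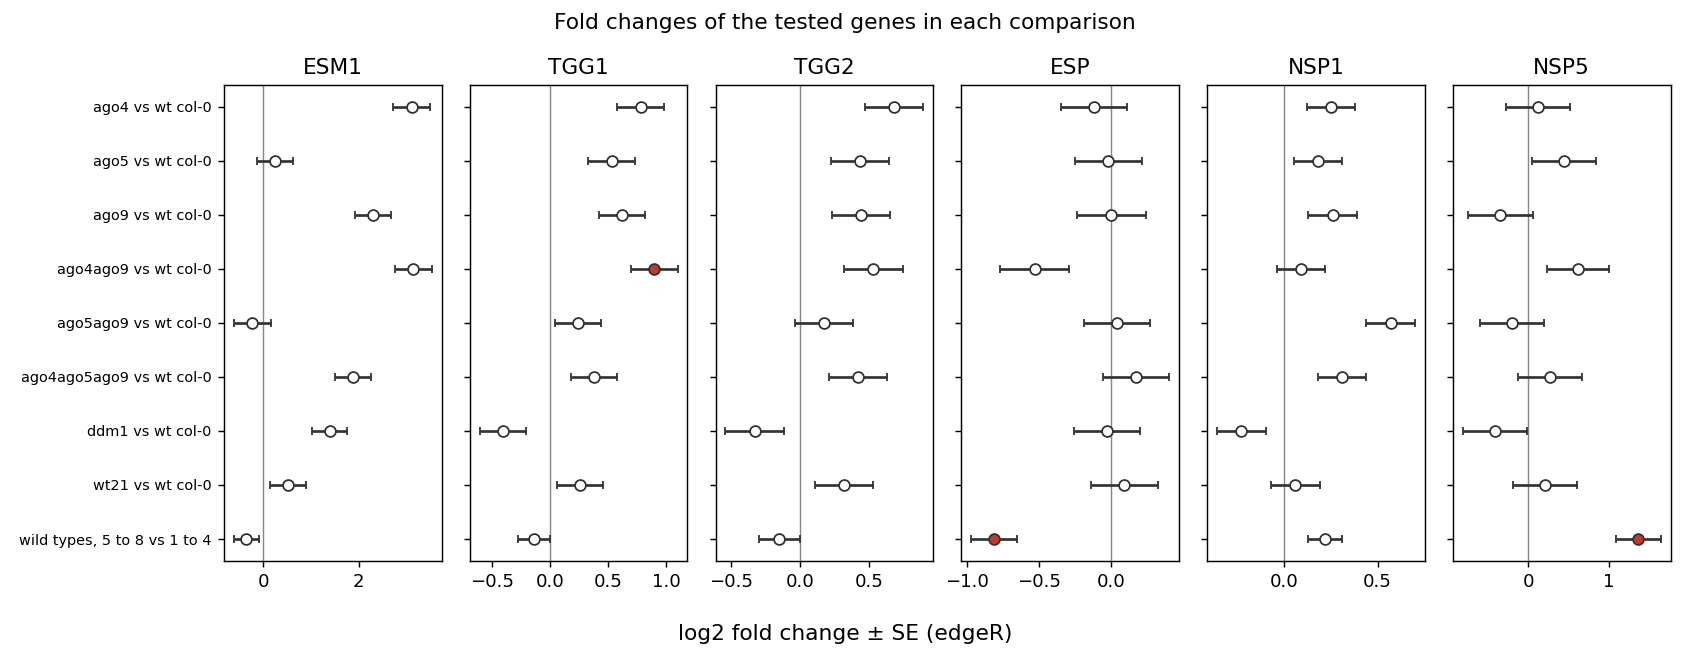
Log2 fold change ± SE from edgeR for the 6 genes that passed the filter, in each of 9 comparisons; filled points are called (adjusted p under 0.05), open points are not called or, for ESM1 in the 7 mutants, not tested. The filled points are TGG1 in ago4ago9 (0.90) and ESP (-0.81) and NSP5 (1.37) in the wild-type replicate sets.

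Around these genes, 27 further genes of glucosinolate cleavage, transport and nitrile use were listed, with FAMA and ICE1, transcription factor genes of the stomatal lineage, among them, of which 17 passed the filter. The root myrosinase genes TGG4 and TGG5, and also TGG6, had no count in any library, which limits each to 0.282 to 0.670 CPM. In ago4, ago5, ago5ago9 and the libraries labelled ago9 and ago4ago5ago9, edgeR called 0 of the 17 genes, where it called 0.0114% to 0.319% of all features. At an unadjusted p under 0.05 it gave 3 to 5 of them, where the shares over all features were 7.32% to 13.5%. In ago4ago9 1 was called higher and 0 lower, where 0.182% of all features were called higher and 0.211% in either direction. It was GTR2, a glucosinolate transporter, which rose from 11.7 ± 1.01 to 17.1 ± 2.66 CPM (SD, n = 4 each; log2 fold change 0.55 ± 0.12, edgeR adjusted p of 0.0298). In wt21 replicates 1 to 4 GTR2 was at 15.5 ± 1.94 CPM (13.3 to 18.0), a range that overlapped that of ago4ago9 (15.4 to 21.1). The median log2 fold change of the 17 genes was 0.30 there and 0.00 over all features tested, and it was 0.29 in ago4 and 0.29 in ago5. It was 0.24 in the libraries labelled ago4ago5ago9, 0.16 in those labelled ago9 and 0.04 in ago5ago9. In wild-type wt21, against the same control, it was 0.16.

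In ddm1 3 of the 17 genes were called lower and 0 higher, where 7.80% of all features were called lower and 19.0% in either direction, with a median log2 fold change of 0.04. MBP1, a myrosinase-binding protein gene, was at 0.624 ± 0.204 CPM against 3.39 ± 1.17 CPM in wt col-0 (-2.38 ± 0.56, edgeR adjusted p of 0.00145). PYK10, the beta-glucosidase of ER bodies, fell by 0.58 ± 0.18 and NSP4 by 0.69 ± 0.21 on the log2 scale (edgeR adjusted p of 0.0156 and 0.0139), and NSP4, like NSP1, had counts that were not whole numbers in all 44 libraries, so its level is uncertain too.

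Between the wild-type replicate sets 7 of the 17 genes were called, where 18.6% of all features were. PYK10 was higher in replicates 5 to 8, at 557 ± 132 against 238 ± 26.7 CPM (SD, n = 8 each; 1.21 ± 0.12, edgeR adjusted p of 2.14e-09), and GLL23 (0.78), NIT3 (0.85) and NIT1 (0.41) were also higher. NIT1 and NIT3 encode nitrilases, which act on nitriles. MBP1 (-1.96), MBP2 (-1.37) and PEN2 (-0.40), an atypical myrosinase active in pathogen defence, were lower. The median over the 17 genes was -0.01.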

How the data were processed

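The deposited table holds estimated counts (expected counts) per feature and library from the authors' own quantification. Per the submitters' processing notes the build was TAIR10 and DESeq2 was used; the aligner, counting program, annotation and use of strand are not given in the sources used here. Values were rounded before testing, since 6.26% of those above 0 were fractional; 2 reporter rows (4.87e-05% of counts) were left out. Positions and sequences were read from TAIR10.1, whose nuclear chromosomes could not be compared with the authors' own files. RefSeq locus tags matched 28929 of 29696 genes.

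Features were filtered with filterByExpr (17557 kept), with TMM factors of 0.855 to 1.33. A quasi-likelihood fit in edgeR 4.0.16 (R 4.3.3) took all 44 libraries, with a mean for each mutant group and each wild-type replicate set and a common biological coefficient of variation of 0.187. Benjamini-Hochberg adjustment covered every feature tested, and a feature was called at an adjusted p under 0.05. The SE is the fold change divided by the square root of F, and 95% intervals are the estimate ± 1.96 SE. The script was tested on simulated data. Alternatives used limma 3.58.1 and DESeq2 1.42.0. Mutants share the wt col-0 control libraries, so their comparisons are not independent. The 98 replicate pairs within groups held 0 identical pairs and a lowest chi-square per degree of freedom of 2.84, so each library counted as a replicate. Limits from counts cover counting error only, since amplified reads are not independent molecules.

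The genes and lists were chosen with earlier results of these data known. Genes named were the 7, the 4 targeted genes, listed genes that a test called, the 2 annotated genes on each side of ESM1 and the 5 features closest to ESM1; markers and listed genes without a call are named beside them as description. The CACGTG search, the shared TGG run and the TGG1 to TGG2 ratio were added after the values had been seen.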

Additional observations from a re-analysis of the deposited data

Results flagged for a closer look

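Among 54 sets of library values (6 genes in 9 groups), 3 held a library far from the others of its group by Dixon's criterion, which chance gives in about 1 of 20 sets. NSP5 was at 77.1 CPM in ago4 replicate 4, against 20.3 to 29.5 CPM in the other 3 libraries, and at 74.2 CPM in ago4ago5ago9 replicate 4, against 28.7 to 33.8 CPM. ESP was at 11.8 CPM in ago5ago9 replicate 4, against 14.6 to 15.1 CPM. ESM1 in the libraries labelled ago9 was not among them, because 2 high and 2 low values leave no single library apart.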

How the results depend on the processing

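The number of genes called, out of TGG1, TGG2, ESP, NSP1 and NSP5, depended mostly on the wild-type libraries used. With all 8 wt col-0 libraries as control it was 2 for ago4 and for ago4ago9 and 1 each for ago5, ago9, ago5ago9 and ddm1. With wt col-0 replicates 5 to 8 it was 4 for ago9, 3 each for ago4, ago5, ago4ago5ago9 and ddm1, and 2 each for both double mutants. The features called moved with these controls, to 300 in ago5, 919 in ago9 and 1261 in ago4 (1.71%, 5.23% and 7.18%) with all 8 libraries. With all 8 they were also 3.66% in ago4ago9, 8.50% in ago5ago9 and 16.6% in ddm1. With replicates 5 to 8 they moved to 9.51% in ago5 up to 17.1% in ago5ago9. The control of replicates 5 to 8 turned the direction of ESP, which became called higher in ago4 (0.77), ago5 (0.87), ago9 (0.89) and ddm1 (0.86). With this control ESP was also called higher in ago5ago9 (0.93) and ago4ago5ago9 (1.06), without a change of direction, and it was not called in ago4ago9. Against wt21 replicates 1 to 4 the number was 0 in ago4ago9 and 2 in ddm1, where 0.228% and 18.9% of all features were called. Against both wild types, replicates 1 to 4, it was 1 in ago5ago9 and 2 in ddm1, where 0.518% and 23.9% were called. DESeq2 called 2 in ago4, 1 in ago9 and 1 in ago5ago9, where it called 1.24%, 0.336% and 0.587% of all features. Without the low-count filter 1 was called in ago4 and 1 in ago5ago9, with the compared groups alone in the fit 2 in ago4, and without the libraries labelled ago9 and ago4ago5ago9 (an alternative added after seeing the data) 1 in ago4. In ago4 these alternatives called 59, 85 and 72 features over the whole table, in that order. Between the wild-type replicate sets 1 of the 6 genes was called within wt21 alone and 1 within wt col-0 alone. Over all alternatives that left out no single library, features called ran from 730 to 4478 between these sets and from 6 to 3010 in ago5ago9. On leaving out a library in turn the numbers ran from 0 to 1 in ago4, ago4ago9 and ago5ago9, from 2 to 3 between the wild-type sets, and stayed at 0 in the other comparisons.

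ESM1 log2 fold changes ran from 2.61 to 3.63 in ago4, from 2.64 to 3.66 in ago4ago9, from 1.38 to 2.40 in ago4ago5ago9 and from 0.89 to 1.90 in ddm1, lowest against wt21 replicates 1 to 4 and highest against wt col-0 replicates 5 to 8. In ago5 (-0.26 to 0.76) and ago5ago9 (-0.74 to 0.28) the sign turned with the control. Features called over the whole table ran from 22 to 2584 in ago4, from 1 to 2280 in the libraries labelled ago9 and from 0 to 108 in wt21 under the alternatives that left out no single library; the cause was not tested.

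Replicate numbers did not pair the libraries with those of wt col-0: of 32 same-numbered pairs, 2 had deviations correlated above 0.1 (-0.18 to 0.13), and 2 libraries correlated best with their own number. Among the other groups, 112 such pairs had correlations of -0.18 to 0.26, with a median of 0.04. With a replicate block TGG1 in ago4ago9 had a log2 fold change of 0.92, and none of 48 results changed its call. Low counts limit ESP, at 3933 counts over all libraries, and NSP2.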

Other observations

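NSP5 levels followed the replicate numbers. In 8 of 9 groups replicates 3 and 4 both lay above replicates 1 and 2: at 59.6 and 64.8 CPM against 19.5 and 21.6 CPM in wt21, at 35.5 and 37.8 CPM against 13.5 and 18.7 CPM in ddm1, and at 40.8 and 44.1 CPM against 18.2 and 20.7 CPM in ago5ago9. In wt col-0 the order was the reverse, with 20.8 and 33.0 CPM below 38.7 and 49.1 CPM. Replicates 3 and 4 stood on the same side of replicates 1 and 2 in at least 8 of 9 groups for 3 of 17557 features (0.0171%), namely NSP5, AT3G60810 and CYP83B1, a gene of indole glucosinolate synthesis. ESM1, ESP, TGG1, TGG2 and NSP1 showed such an order, in either direction, in 2 to 4 of the 9 groups. The pattern was noticed after the values had been seen and was not tested, and the labels do not say what the replicate numbers stand for.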
